A study of Mus musculus with 6 samples.

Results

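The core circadian clock loop is the set of transcription factors and repressors with which single cells keep daily time. It was taken here as 10 genes, matched by symbol in the deposited tables: the activators Arntl (also called Bmal1), Clock and Npas2, and the repressors Per1, Per2, Per3, Cry1, Cry2, Nr1d1 and Nr1d2. Each symbol was found exactly once among the 55487 genes listed, and all 10 were among the 15727 that passed the filter on low counts.

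In this loop the protein of Arntl pairs with that of Clock, or with its paralog Npas2, binds E-box elements in DNA and switches on the Per, Cry and Nr1d genes. PER and CRY proteins return to the nucleus and block the activators, and the nuclear receptors encoded by Nr1d1 and Nr1d2 (REV-ERB alpha and beta) repress Arntl, Npas2 and Clock through ROR response elements. In rodent hearts the loop runs inside cardiac muscle cells and sets the daily course of metabolic, ion channel and growth genes. Arntl mRNA and the mRNAs of Nr1d1, Per3 and the output gene Dbp peak at nearly opposite times of day.

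The mRNA was measured in left ventricles from 8-week-old male C57BL/6 wild-type mice. The CONT group (3 libraries) ate an isocaloric control diet for 10 days and then received 1 gavage of maltose-dextrin. The ET group (3 libraries) was fed 5% ethanol in its diet over the same 10 days, followed by 1 ethanol gavage, and its labels give alcoholic cardiomyopathy as the disease state. All hearts were taken 9 h after the gavage, a single time point, and the labels give no clock time or light schedule. A shift of the daily rhythm and a change of its height therefore cannot be told apart. In a whole-tissue sample, fewer cells of a type and less RNA per cell cannot be told apart either. Whether each library is a mouse of its own is not stated in the labels. The p-values then cover only how far these libraries spread, and that spread may be technical.

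The libraries held 28838386 to 37762233 expected counts, of which mitochondrially encoded genes took 27.8% to 31.9%. The 7 markers of cardiac muscle cells were all present, with a summed level of 30095 to 56093 CPM (counts relative to the library total, scaled between libraries by TMM). ET replicate 1 and CONT replicate 3 stood apart by the summed level of 5 atrial markers, 8818 and 1539 CPM against 58.8 to 333 in the other 4 libraries. ET replicate 1 was also the highest of the 6 in fibroblast, smooth muscle, mesothelial, adipocyte and macrophage markers. ET replicate 3 was the highest in neutrophil (41.9 CPM) and hepatocyte (72.6 CPM) markers. None of the defining markers was at 0 in all libraries. Of 12 such lists only that of the 5 macrophage markers did not overlap between groups, at 69.6 to 86.0 CPM in CONT and 99.0 to 241 in ET. The part of these cell types in the results was not tested.

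Start-site windows of 300 bases, from 250 before to 50 after a RefSeq transcript start (GRCm38.p6), show the elements through which the loop is known to control itself. Windows were found for 9 of the 10 genes, all but Per2, and numbered 13. The letters searched on both strands were CACGTG (E-box), CACGTT (a weaker E-box form, AACGTG on the other strand), TAGGTCA or TGGGTCA (ROR response element), TTATGTAA or TTACGTAA (D-box) and TGACGTCA (cyclic AMP element), together with the palindromic glucocorticoid element. The Arntl, Cry1, Per1 and Per3 windows are shown because each holds an E-box, a ROR element or a D-box, with the matches in capitals and each sequence written 5' to 3' on the strand of the gene. They lie at chr7:113207261-113207560 (plus strand), chr10:85185005-85185304 (minus), chr11:69098699-69098998 (plus) and chr4:151044616-151044915 (minus).
Arntl: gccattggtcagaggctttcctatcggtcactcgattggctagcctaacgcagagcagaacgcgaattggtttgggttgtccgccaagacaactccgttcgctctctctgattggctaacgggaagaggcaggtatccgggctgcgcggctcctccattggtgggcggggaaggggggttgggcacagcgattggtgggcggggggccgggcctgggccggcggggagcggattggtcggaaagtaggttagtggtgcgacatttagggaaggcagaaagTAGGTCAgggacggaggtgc
Cry1: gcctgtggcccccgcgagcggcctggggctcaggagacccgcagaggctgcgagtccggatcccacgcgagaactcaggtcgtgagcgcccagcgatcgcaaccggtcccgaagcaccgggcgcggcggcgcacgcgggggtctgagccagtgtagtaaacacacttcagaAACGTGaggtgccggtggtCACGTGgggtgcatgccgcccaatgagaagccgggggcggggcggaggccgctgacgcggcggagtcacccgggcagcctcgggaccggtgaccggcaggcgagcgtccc
Per1: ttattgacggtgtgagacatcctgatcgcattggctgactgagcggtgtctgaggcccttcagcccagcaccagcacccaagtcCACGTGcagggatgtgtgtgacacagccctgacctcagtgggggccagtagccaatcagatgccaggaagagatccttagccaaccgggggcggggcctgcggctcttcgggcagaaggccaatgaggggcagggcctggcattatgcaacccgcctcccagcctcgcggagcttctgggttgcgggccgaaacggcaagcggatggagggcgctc
Per3: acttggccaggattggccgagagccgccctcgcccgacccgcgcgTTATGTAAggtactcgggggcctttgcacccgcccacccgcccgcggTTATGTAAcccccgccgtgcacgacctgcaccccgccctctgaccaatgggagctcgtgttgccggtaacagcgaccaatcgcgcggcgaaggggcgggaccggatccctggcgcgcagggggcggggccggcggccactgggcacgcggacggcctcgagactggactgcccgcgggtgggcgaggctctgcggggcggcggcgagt

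The Arntl window shown held a single ROR element, TAGGTCA, whose first base was base 31 of the transcript with that start. An E-box began 60 bases before the start of Cry1 and 166 bases before that of Per1 in the windows shown. Arntl and Per1 each had another window, from another start, and it held none of the elements searched. The Cry1 window also held the weaker form, 79 bases before the start. The Per3 window held a pair of D-boxes, the element read by the DBP, TEF, HLF and NFIL3 factors, at 205 and 158 bases before the start. The weaker E-box form was also present in Cry2 (166 bases before the start) and Nr1d1 (28 bases). Of 32817 RefSeq windows of this length, 7.15% held the E-box, 4.69% the weaker form, 6.46% a ROR element and 1.05% a D-box, against 2, 3, 1 and 1 of the 13 windows of the clock genes. The cyclic AMP and glucocorticoid elements, present in 1.79% and 0.475% of all windows, had 0 matches in the 13. These matches describe the letters in the window and show no binding.

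On the GRCm38 build the 10 genes, all protein-coding and each measured over all its exons, lie as follows. Arntl (ENSMUSG00000055116) is on chromosome 7 at 113207465 to 113314126 (plus strand), Clock (ENSMUSG00000029238) on chromosome 5 at 76209868 to 76304792 (minus) and Npas2 (ENSMUSG00000026077) on chromosome 1 at 39193731 to 39363236 (plus). Per1 (ENSMUSG00000020893) is on chromosome 11 at 69095217 to 69109960 (plus), Per2 (ENSMUSG00000055866) on chromosome 1 at 91415982 to 91459324 (minus) and Per3 (ENSMUSG00000028957) on chromosome 4 at 151003652 to 151044665 (minus). Cry1 (ENSMUSG00000020038) is on chromosome 10 at 85131700 to 85185064 (minus) and Cry2 (ENSMUSG00000068742) on chromosome 2 at 92403646 to 92434043 (minus). Nr1d1 (ENSMUSG00000020889) is on chromosome 11 at 98767932 to 98775333 (minus) and Nr1d2 (ENSMUSG00000021775) on chromosome 14 at 18204054 to 18239127 (minus). Because the use of strand in counting is not given in the sources used here, reads from an overlapping gene on the opposite strand may be included. This concerns 8.55% of the exon bases of Nr1d1 (shared with Thra, a thyroid hormone receptor), 4.67% of Cry2 (D930015M05Rik) and 0.439% of Arntl (Gm45355), and 0 in the other 7.

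Per transcript length, each repressor had a higher mean level than each activator in both groups. TPM, the share of transcripts after correction for length, was highest in CONT for Nr1d1 (28.0 ± 12.6, SD, n = 3) and Nr1d2 (25.9 ± 1.62), followed by Per1 (13.3 ± 4.83), Per3 (9.60 ± 0.880), Cry2 (6.97 ± 1.82) and Per2 (6.39 ± 1.26). Cry1 (2.82 ± 0.535 TPM), Clock (1.98 ± 0.206), Arntl (0.447 ± 0.0586) and Npas2 (0.323 ± 0.153) came last. In CONT the TPM ranges of neighbours in this order were separate between Nr1d2 and Per1, Per2 and Cry1, Cry1 and Clock, and Clock and Arntl, and overlapped in the other 5 steps. Among all tested genes, the mean TPM of Nr1d1 and Nr1d2 lay at the percentiles 86.7 and 86.8, and those of Arntl and Npas2 at 19.8 and 10.4.

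**Figure D1:**
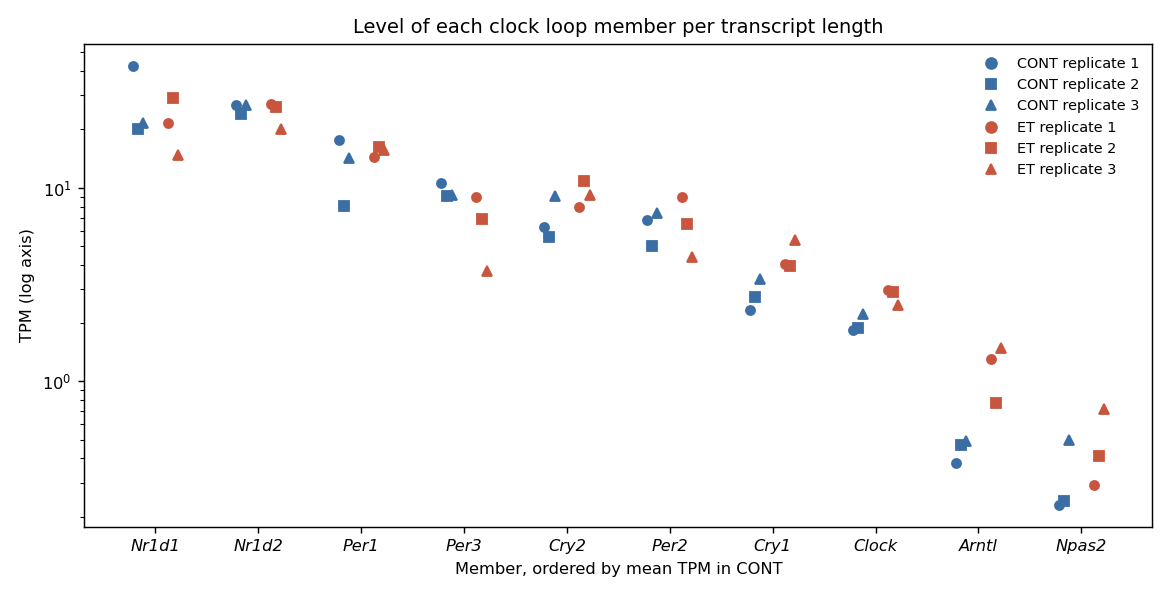
TPM (log axis) of the 10 clock genes, ordered by their mean in CONT, with 1 point per library, blue for CONT and red for ET. Nr1d1 and Nr1d2 lie between 14.7 and 42.6 TPM in every library, while Arntl lies at 0.38 to 0.49 in CONT and 0.77 to 1.49 in ET.

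In ET the order was the same at the lower end, with Cry1 at 4.44 ± 0.785 TPM, Clock at 2.78 ± 0.258, Arntl at 1.19 ± 0.373 and Npas2 at 0.473 ± 0.222 (SD, n = 3). Arntl and Npas2, whose ranges overlapped in CONT, were separate in ET (0.77 to 1.49 against 0.29 to 0.72 TPM). Per3 ranked 4 of 10 in CONT and 6 of 10 in ET, at 6.52 ± 2.64 TPM, with a range that overlapped those of Per2 and Cry1 beside it.

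The comparison of ET with CONT asks how the loop's mRNAs stood after ethanol feeding and gavage. More Arntl mRNA was found in ET (2.79 ± 0.917 CPM against 1.25 ± 0.292, SD, n = 3 per group), as was more Clock mRNA (24.2 ± 1.14 against 19.8 ± 0.557). Less mRNA was found for the repressors Per3 (27.7 ± 7.25 against 45.1 ± 5.52) and Nr1d2 (85.2 ± 4.25 against 103 ± 7.37). In these 4 genes the groups were separate in CPM, 2 with ET higher and 2 with ET lower. None of the 10 passed the test across all genes, the quasi-likelihood test of edgeR at a Benjamini-Hochberg adjusted p of 0.05.

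Read against all tested genes, the counts were as follows. An adjusted p under 0.05 was reached by 0 of the 10 and by 0.00% of 15727 genes. An unadjusted p under 0.05 was reached by 3 of the 10, with Arntl and Clock higher and Per3 lower in ET, against 8.65% of all genes (4.19% higher and 4.46% lower). CPM ranges did not overlap in 4 of 10 clock genes against 15.2% of all genes (6.89% higher and 8.36% lower in ET). In TPM the ranges did not overlap in Arntl, Clock and Cry1 (higher) and Per3 (lower), against 15.6% of all genes, and those of Nr1d2 did. DESeq2 gave 0 of 10 an adjusted p under 0.05, against 1.20% of the 15365 genes to which it gave one, and 4 of 10 (Arntl, Clock, Per3 and Nr1d2) an unadjusted p under 0.05, against 10.4%. The median log2 fold change (ET over CONT) was 0.29 over the 3 activators and -0.16 over the 7 repressors, against 0.01 over all genes. The median size of the change, whatever its sign, was 0.29 for the 10 and 0.22 for all genes.

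**Figure D2:**
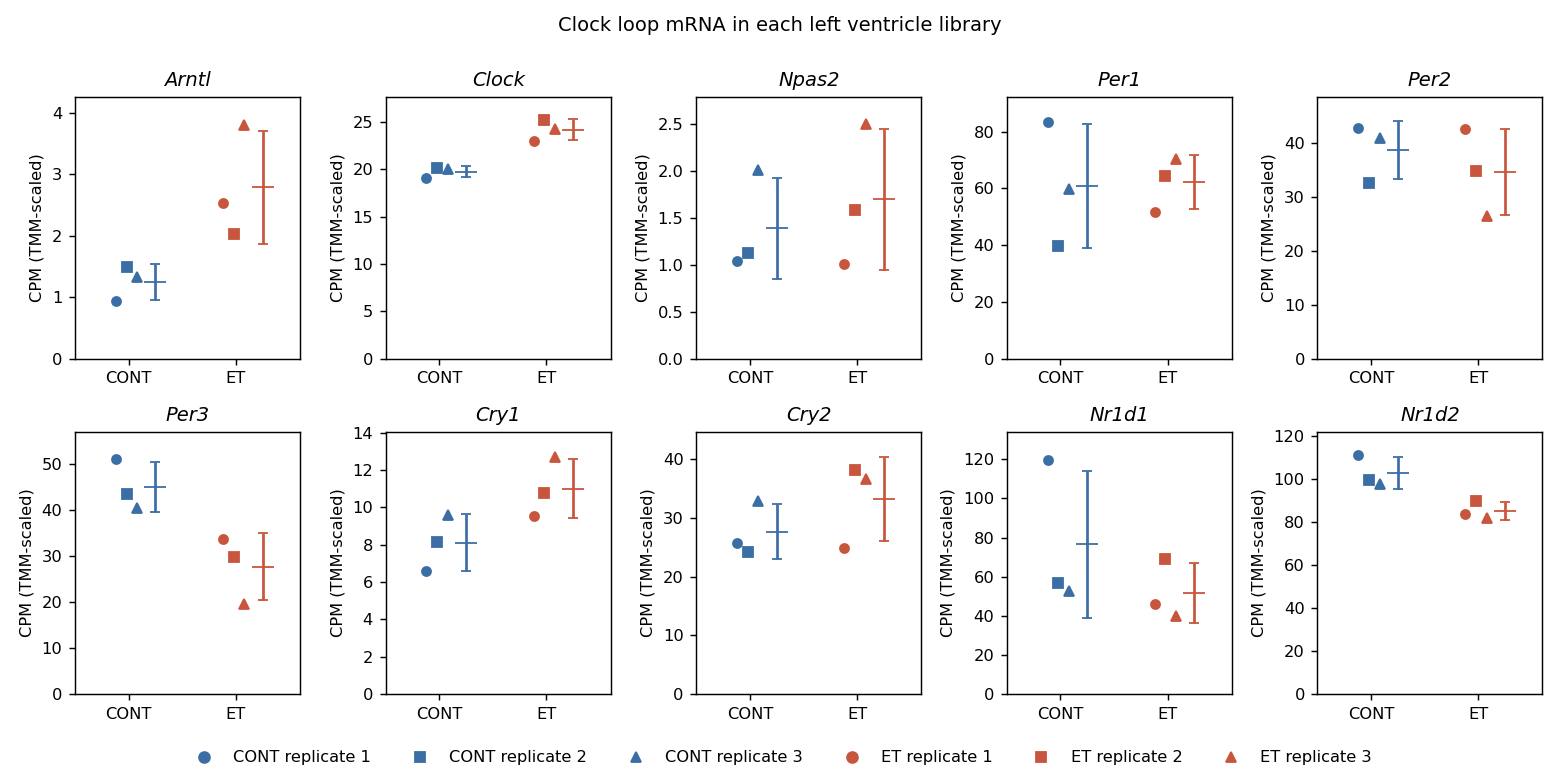
CPM, scaled between libraries, of each clock gene in the 3 CONT (blue) and 3 ET (red) libraries, with bars for the group mean ± SD and axes from 0. The groups are separate in Arntl, Clock, Per3 and Nr1d2 and overlap in the other 6 genes.

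Among the activators, Arntl, the partner without which the loop stops, was at 0.930, 1.5 and 1.33 CPM in CONT replicates 1 to 3 and at 2.53, 2.03 and 3.81 in ET replicates 1 to 3. All 3 ET libraries lay above all 3 CONT libraries, and ET replicate 3 was the highest. The log2 fold change was 1.16 ± 0.34 (SE), a 2.23-fold level, with an unadjusted p of 0.0113 and an adjusted p of 0.508 in edgeR's test. Arntl rested on few reads, 34, 40 and 45 counts in CONT and 95, 69 and 117 in ET. The exact 95% Poisson interval, which covers counting error only, was 1.07 to 2.04 CPM in CONT replicate 2 and 1.58 to 2.57 in ET replicate 2, so these 2 libraries were not separated at this depth. Without ET replicate 3 the log2 fold change was 0.86.

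Clock, which encodes the partner of the Arntl protein, was at 19.1, 20.1 and 20.0 CPM in CONT and 23.0, 25.3 and 24.3 in ET. Its groups were narrow and did not overlap, with a coefficient of variation of 2.82% in CONT and 4.71% in ET against medians of 13.9% and 22.0% over all genes. The log2 fold change was 0.29 ± 0.11 (adjusted p = 0.541 in edgeR) and was 0.47 on the log2(TPM + 0.1) scale. The median over all genes was also higher on that scale, 0.18 against 0.01 in the main fit. Npas2, the paralog of Clock, was at 1.04, 1.12 and 2.01 CPM in CONT and 1.01, 1.59 and 2.51 in ET. The groups overlapped, the replicates 3 of both groups were the highest libraries, and the log2 fold change was 0.28 ± 0.44 (adjusted p = 0.840). This value was -0.10 without ET replicate 3 and 0.66 without CONT replicate 3. Npas2 rested on 30 to 77 counts per library.

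The REV-ERB receptors are the link from the activators back to Arntl. Nr1d1 was at 119.9, 57.0 and 52.6 CPM in CONT and 45.9, 68.9 and 39.8 in ET. CONT replicate 1 was far above the other 5 libraries and the groups overlapped, with a log2 fold change of -0.57 ± 0.37 (adjusted p = 0.644 in edgeR) that was -0.09 without CONT replicate 1. Nr1d2 was at 111.4, 99.5 and 98.0 CPM in CONT and 83.8, 90.0 and 81.9 in ET. Every ET library lay below every CONT library in CPM, with a log2 fold change of -0.27 ± 0.14 (adjusted p = 0.585) that was -0.09 in both TPM fits and -0.17 with unscaled library totals. The median over all genes moved as well, from 0.01 in the main fit to 0.15 and 0.18 in the TPM fits and 0.12 with unscaled totals. In TPM the 2 groups of Nr1d2 overlapped, with 26.8, 24.0 and 26.8 in CONT and 27.2, 26.0 and 20.1 in ET.

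Of the Per genes, which encode the repressors that carry the CRY proteins into the nucleus, Per3 differed the most. It was at 51.2, 43.4 and 40.5 CPM in CONT and 33.7, 29.8 and 19.6 in ET. All ET libraries were lower than all CONT libraries, with ET replicate 3 the lowest, a log2 fold change of -0.70 ± 0.22 and a 0.615-fold level (unadjusted p 0.0145, adjusted p = 0.515 in edgeR). Without ET replicate 3 the log2 fold change of Per3 was -0.51.

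Per1, which hormones and stress induce within a short time, was at 83.2, 39.7 and 59.8 CPM in CONT and 51.7, 64.3 and 70.3 in ET. The ET values lay within the CONT range, with a log2 fold change of 0.03 ± 0.28 (adjusted p = 0.981 in edgeR) whose sign turned in 4 alternative settings. Per2 was at 42.7, 32.6 and 40.8 CPM in CONT and 42.4, 34.7 and 26.4 in ET, overlapping, with a log2 fold change of -0.16 ± 0.20 (adjusted p = 0.798) whose sign turned in both TPM fits. In those fits the median over all genes was 0.15 and 0.18, against 0.01 in the main fit. Within a library, the log2 ratio of Per1 to Per3 in TPM was 0.73, -0.16 and 0.64 in CONT and 0.69, 1.24 and 2.08 in ET. ET replicate 1 lay inside the CONT range and the other 2 ET libraries above it.

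The Cry genes encode the proteins that inhibit the activator pair most directly. Cry1 was at 6.60, 8.13 and 9.62 CPM in CONT and 9.55, 10.8 and 12.7 in ET. The groups overlapped by a small margin, between CONT replicate 3 and ET replicate 1, with a log2 fold change of 0.44 ± 0.19 (adjusted p = 0.572 in edgeR). In TPM the Cry1 groups did not overlap, at 2.33, 2.73 and 3.39 in CONT and 4.05, 3.92 and 5.34 in ET. On the log2(TPM + 1) scale the log2 fold change of Cry1 was 0.51, and the median over all genes was 0.15. Cry2 was at 25.8, 24.2 and 33.0 CPM in CONT and 25.0, 38.2 and 36.6 in ET, with overlap and a log2 fold change of 0.27 ± 0.21 (adjusted p = 0.689).

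**Figure D3:**
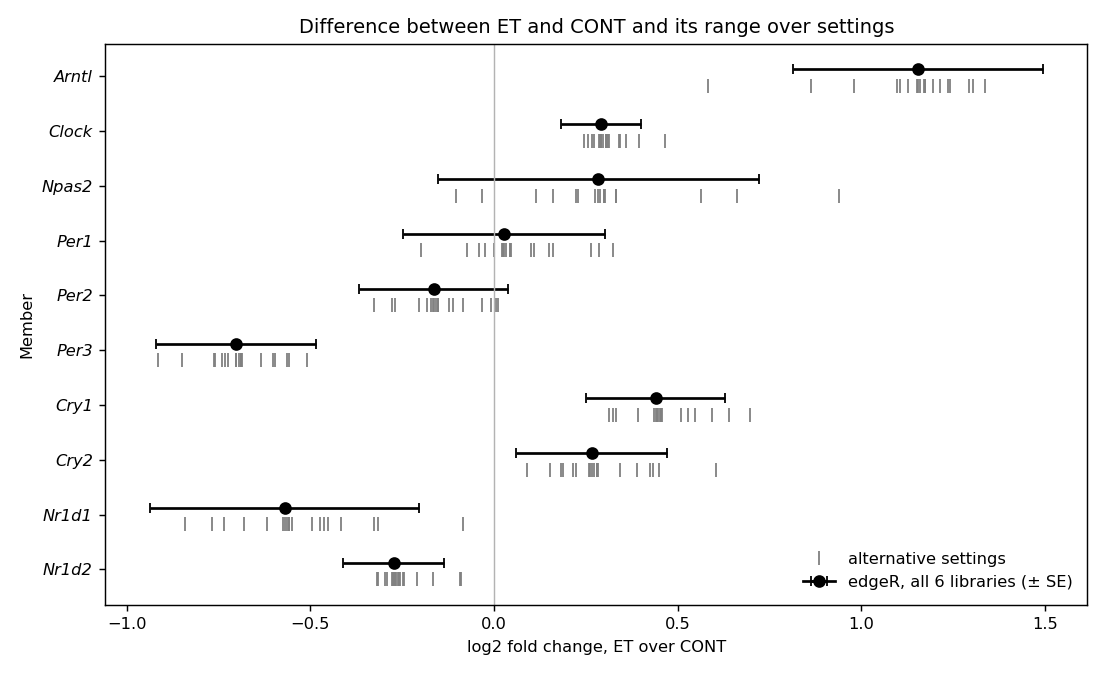
Log2 fold change of each clock gene, ET over CONT (horizontal axis), as the edgeR estimate from all 6 libraries with its SE (black) and as the value in each alternative setting (grey ticks). Arntl, Clock, Cry1 and Cry2 stay above 0 and Per3, Nr1d1 and Nr1d2 below 0 in every setting shown, while Npas2, Per1 and Per2 lie on both sides.

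In an alternative fit the libraries with the most atrial marker RNA (ET replicate 1 and CONT replicate 3) were both left out. The 4 libraries that then stay belong to different library sets in the 2 groups (the sets are described with the effective lengths), so group and set cannot be told apart in this fit. Cry2 then passed (log2 fold change 0.60 ± 0.12, adjusted p = 0.0440 in edgeR), 1 of 10 clock genes against 5.27% of all genes. Per3 (-0.92 ± 0.22, adjusted p = 0.0622), Cry1 (0.70 ± 0.18, adjusted p = 0.0709) and Arntl (1.29 ± 0.43, adjusted p = 0.112) did not pass. An unadjusted p under 0.05 was reached by 6 of 10, against 27.7% of all genes, and CPM ranges were separate in 7 of 10, against 60.5%. The single call and the 7 separate ranges are near the shares of all genes.

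A ratio of 2 genes in the same library does not depend on how libraries are scaled to each other. The log2 ratio of Arntl to Nr1d1 in TPM was -6.81, -5.41 and -5.45 in CONT and -4.06, -5.24 and -3.30 in ET. The log2 ratio of Arntl to Per3 was -4.80, -4.26 and -4.22 in CONT and -2.79, -3.16 and -1.32 in ET. Both ratios were higher in all 3 ET libraries, and the difference between the group means was 1.69 for Nr1d1 and 2.01 for Per3 as the denominator. Of the 21 ratios of an activator to a repressor, 7 were higher in ET without overlap, 0 were lower without overlap and 14 overlapped. The 7 were those of Arntl to Per2, Per3, Cry1, Nr1d1 and Nr1d2 and of Clock to Per3 and Nr1d2. The ratios share genes and are not separate results, and no share over other gene pairs was taken. Arntl, Clock and Per3 were each separate between groups in TPM by themselves. For Arntl to Nr1d1, CONT replicate 2 (-5.41) and ET replicate 2 (-5.24) lay close, as they did for Arntl to Cry1 (-2.54 and -2.35). These 2 libraries held 40 and 69 Arntl counts, whose Poisson intervals overlapped.

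**Figure D4:**
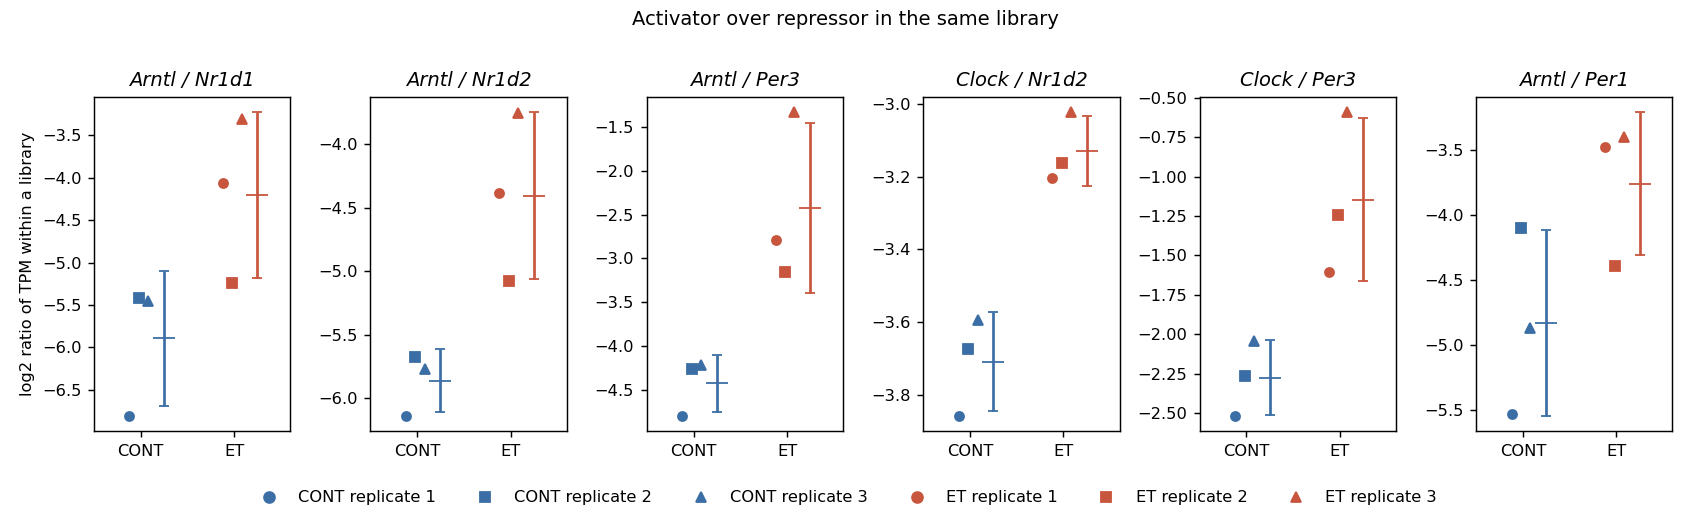
Log2 ratio of an activator to a repressor in TPM within each library, for 6 of the ratios, with bars for the group mean ± SD; each panel has its own axis. The groups are separate in the first 5 panels and overlap for Arntl over Per1, where CONT replicate 2 (-4.10) lies above ET replicate 2 (-4.39).

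Within the activators, the log2 ratio of Arntl to Clock was -2.28, -2.00 and -2.18 in CONT and -1.18, -1.91 and -0.74 in ET, higher in all ET libraries. The gap between CONT replicate 2 and ET replicate 2 was small, and the Poisson intervals of their 40 and 69 Arntl counts overlapped. The paralog pairs Npas2 to Clock, Cry1 to Cry2, Nr1d1 to Nr1d2 and Per1 to Per2 overlapped between groups. The log2 ratio of Cry1 to Cry2 was -1.29 ± 0.225 in CONT and -1.07 ± 0.359 in ET, and that of Nr1d1 to Nr1d2 was 0.03 ± 0.553 and -0.21 ± 0.326 (SD, n = 3).

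The clock genes also differed among libraries of the same group. CONT replicate 1 held the highest CPM of 5 of the 10 genes, all repressors (Per1, Per2, Per3, Nr1d1 and Nr1d2), and the lowest of Arntl, Clock and Cry1. ET replicate 3 held the highest of Arntl, Npas2 and Cry1 and the lowest of Per2, Per3, Nr1d1 and Nr1d2. In log2 CPM centred over the 6 libraries, the 3 activators averaged -0.55 in CONT replicate 1 and 0.67 in ET replicate 3, and between -0.26 and 0.16 in the other 4. The REV-ERB pair averaged 0.63 in CONT replicate 1 and -0.39 in ET replicate 3. The summed level of 5 endothelial markers had the same ends, with 1035, 920 and 534 CPM in CONT and 795, 684 and 484 in ET. So did that of 5 skeletal muscle markers, with 419, 157 and 165 CPM in CONT and 268, 65.1 and 24.5 in ET. ET replicate 3 also held the highest neutrophil and hepatocyte markers. The part of these cell types in the clock values was not tested.

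The effective gene length, the mean length over which a gene's reads were counted, was derived from the deposited expected counts and FPKM. It follows which transcripts the reads were assigned to. It places the libraries into sets that cross the groups: CONT replicates 1 and 2 with ET replicate 1, and CONT replicate 3 with ET replicates 2 and 3. The lengths of 2237 of 9657 well-counted genes (23.2%) did not overlap between these sets, against 1212 (12.6%) between ET and CONT, and the sets were chosen for this number. Within each set, the log2 ratio of mean CPM, ET over CONT, was taken. In the first and the second set it came to 1.06 and 1.13 for Arntl, 0.23 and 0.31 for Clock and -0.49 and -0.71 for Per3. For Nr1d2 it came to -0.33 and -0.19, and for Cry1 to 0.38 and 0.29. The sign of this ratio was opposite in the sets for the other 5 genes, which for Nr1d1, Npas2 and Cry2 rests on a value near 0. The values were -0.95 and 0.05 for Nr1d1, -0.25 and 0.17 for Per1, 0.17 and -0.42 for Per2, -0.09 and 0.02 for Npas2, and -0.0013 and 0.18 for Cry2. Each of these values rests on a single ET library in the first set and a single CONT library in the second. When the edgeR model included the library set, Arntl had a log2 fold change of 1.10 ± 0.36, Per3 -0.60 ± 0.19 and Clock 0.27 ± 0.10 (adjusted p = 0.435, 0.431 and 0.479). These 3 were the clock genes with an unadjusted p under 0.05 in that fit, against 10.0% of all genes. Cry2 had 0.09 ± 0.11 in the same fit.

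Among the clock genes themselves, the effective length of Per2 was nearly constant, at 5757 to 5760 bases. That of Clock ran from 9342 to 9493 bases and that of Nr1d1 from 2502 to 2593. Per3 ran from 4239 to 5053 bases, separate between the library sets as Clock was, with the longest in ET replicate 3. Cry1 ran from 2283 to 2952 bases and was shortest in ET replicate 3. Arntl ran from 2196 to 2852 bases, with overlap between the groups. Per1 was shorter in every ET library than in every CONT library. It measured 4357, 4340 and 4357 bases in CONT and 4328, 4262 and 4291 in ET. Npas2 measured 4193, 4161 and 4204 bases in CONT and 4153, 4121 and 3339 in ET. Arntl and Npas2 fell short of the 100 counts in every library asked of the genes behind the library sets. Their lengths are imprecise, and the gap between the Npas2 groups, 4161 against 4153 bases, cannot be read as a difference.

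By the root-mean-square distance between centred log2 CPM profiles over the 6 libraries, the genes most like Arntl among 11912 were Mgst1, a microsomal glutathione transferase (distance 0.20), Mt1, a metallothionein (0.21), and Hsd11b1, the enzyme that regenerates active glucocorticoid (0.22). Mgst1 was at 25.3, 33.7 and 35.5 CPM in CONT and 54.5, 56.9 and 73.5 in ET (log2 fold change 0.97 ± 0.19, adjusted p = 0.427 in edgeR). The genes most like Nr1d1 were Dcbld1 (0.18), Ccdc166 (0.20) and Hspg2, the basement membrane proteoglycan perlecan (0.21). Hspg2 was at 683, 494 and 435 CPM in CONT and 409, 552 and 320 in ET, and like Nr1d1 was highest in CONT replicate 1 and lowest in ET replicate 3. These genes were chosen for the likeness, so shared ends and directions follow from the choice and are no further result.

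Beyond the core, the second loop and the direct outputs form the next layer: Dbp, Tef and Hlf activate D-boxes, Nfil3 represses them, and the ROR receptors compete with the REV-ERBs at ROR elements. Of 13 such genes, all tested, none passed in edgeR, while unadjusted p was below 0.05 in 5 (1 higher in ET, 4 lower), against 8.65% of all genes (4.19% and 4.46%), with a median log2 fold change of -0.17 against 0.01 over all genes. Timeless, a replication fork protein related to a fly clock gene, was at 19.3, 21.5 and 16.1 CPM in CONT and 11.3, 11.5 and 11.2 in ET. Its ET values were tight and all lower (log2 fold change -0.74 ± 0.14, adjusted p = 0.427 in edgeR). DESeq2 called Timeless (adjusted p = 0.00824) and no other gene of the lists beyond the core, which held 14, 13, 14, 6 and 7 tested genes. Over all genes DESeq2 called 1.20%. In simulated data DESeq2 made 59 false calls, beside 44 and 86 true ones for 2-fold and 4-fold changes.

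Dbp, a PAR bZIP factor and classical direct target of the activator pair, was at 175.6, 110.1 and 77.4 CPM in CONT and 62.4, 57.9 and 32.9 in ET. All ET libraries lay below all CONT libraries, and CONT replicate 1 and ET replicate 3 were again the ends (log2 fold change -1.24 ± 0.36, adjusted p = 0.508 in edgeR). Dbp shares 18.0% of its exon bases with Sphk2 on the opposite strand, so its value is uncertain. Rora, an activating ROR receptor, was at 14.1, 15.3 and 18.8 CPM in CONT and 21.1, 23.3 and 26.9 in ET, all higher (0.56 ± 0.16, adjusted p = 0.50). Bhlhe41, an E-box repressor also called DEC2, was at 24.6, 18.5 and 20.0 CPM against 14.1, 16.3 and 14.8, all lower (-0.48 ± 0.15, adjusted p = 0.515), with 19.0% of its exon bases shared with Gm43909. Ciart (CHRONO), a further repressor of the activator pair, named after its values were seen, was at 18.3, 8.09 and 6.51 CPM against 4.35, 6.61 and 4.65, with overlap (-1.07 ± 0.40, adjusted p = 0.541).

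**Figure D5:**
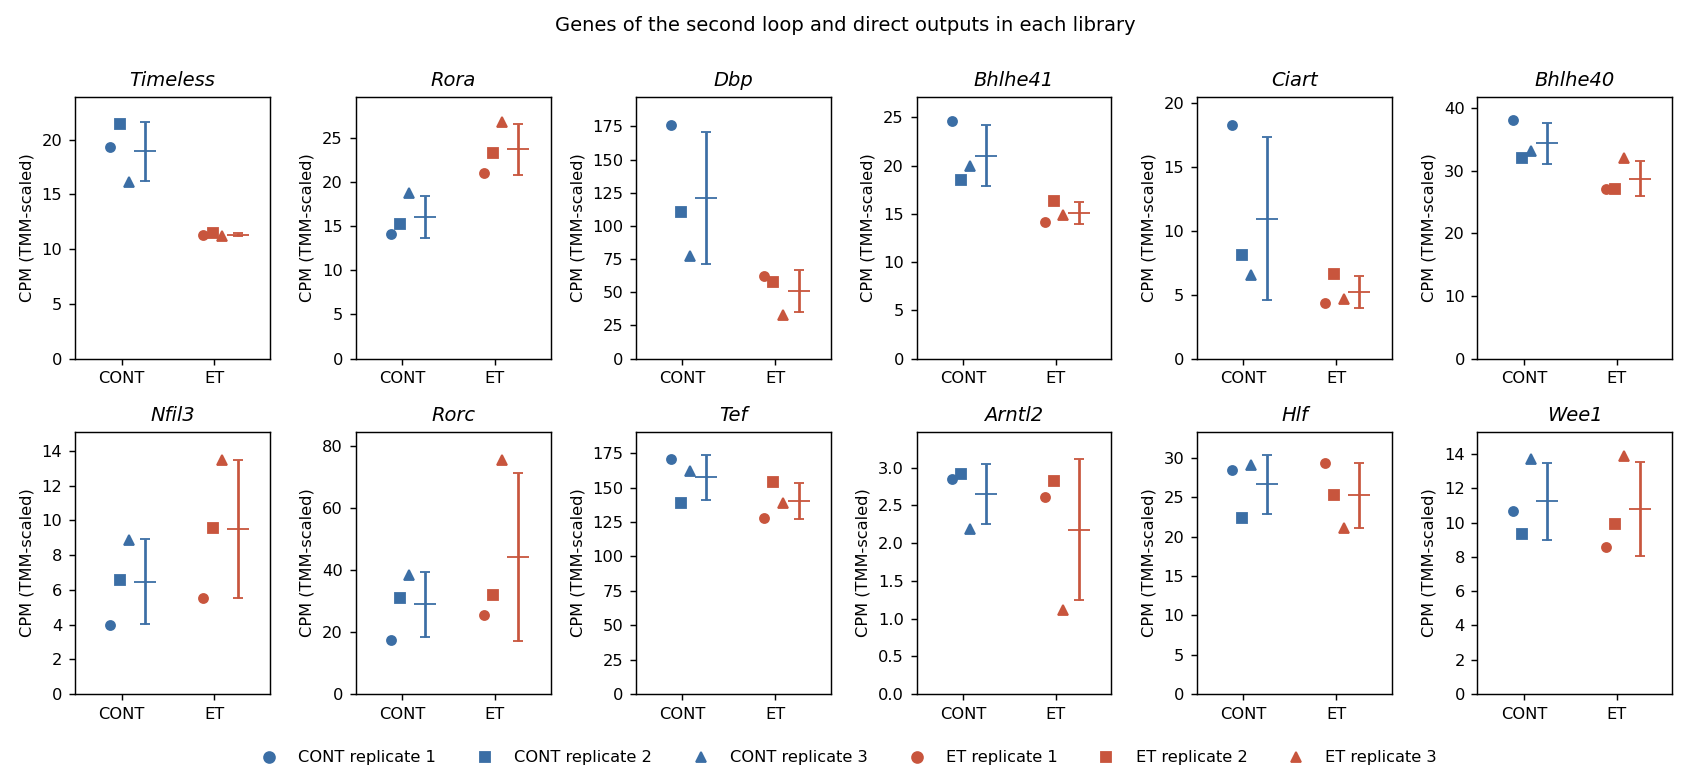
CPM, scaled between libraries, of the 12 second-loop and output genes with a mean of at least 1 CPM, in order of increasing p, with bars for the group mean ± SD. Timeless, Dbp, Bhlhe41 and Bhlhe40 are lower and Rora is higher in every ET library than in every CONT library. For Bhlhe40 the gap is minimal, 32.03 CPM in ET replicate 3 against 32.05 in CONT replicate 2. Over all genes, 15.2% have separate CPM ranges.

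The lists of enzymes, cofactors and input factors of the loop held 0 genes with an unadjusted p under 0.05 in edgeR, against 8.65% of all genes. Of 14 tested kinases, ubiquitin ligases and ubiquitin-removing enzymes acting on PER and CRY proteins, 13 had a positive log2 fold change. Their median was 0.11, against 0.01 over all genes. The values were 0.27 ± 0.14 for Fbxw11, a ubiquitin ligase subunit for PER, and 0.21 ± 0.13 for Csnk1d and 0.14 ± 0.13 for Csnk1e, the PER kinases (adjusted p from 0.593 to 0.724). Of 14 cofactors, 11 had a positive value, with a median of 0.15, against the same 0.01. The share of positive values over all genes was not taken. Ep300, an acetyltransferase coactivator of the pair, had 0.30 ± 0.13, Ncor1, a corepressor bound by the REV-ERBs, 0.37 ± 0.20, and Sirt1, an NAD-dependent deacetylase, 0.24 ± 0.15 (adjusted p from 0.572 to 0.640). The medians of both lists and of all genes moved with the scaling. With unscaled library totals they were 0.20 for the enzymes acting on PER and CRY and 0.26 for the cofactors, against 0.12 over all genes. On the log2(TPM + 1) scale they were 0.26 and 0.32 against 0.15, and on the log2(TPM + 0.1) scale 0.31 and 0.36 against 0.18.

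Of 6 input factors, 3 were positive and 3 negative, with a median of -0.0047 (0.0144 over all genes). Nr3c1, the glucocorticoid receptor, had -0.19 ± 0.13, Hsf1, the heat shock factor, -0.17 ± 0.13, Creb1 0.13 ± 0.16 and Srf 0.05 ± 0.19 (adjusted p from 0.652 to 0.952 in edgeR). Of 7 cardiac genes known to follow the clock in heart muscle cells, 5 were positive, with a median of 0.08. Klf15, a Krüppel-like factor that gives daily rhythm to cardiac metabolism and repolarisation, was at 22.4, 21.9 and 47.8 CPM in CONT and 27.5, 61.1 and 69.3 in ET (0.78 ± 0.43, adjusted p = 0.608). Its CONT replicate 3 lay with the ET libraries, and its ET replicate 1 with CONT replicates 1 and 2, as the library sets do. Pik3r1, a regulatory subunit of phosphoinositide 3-kinase, had 0.52 ± 0.46, Tcap, a sarcomere protein, -0.21 ± 0.27, and Dgat2, an enzyme of triglyceride synthesis, 0.24 ± 0.37. The lists beyond the core held 14, 13, 14, 6 and 7 genes tested in the main fit. Without CONT replicate 3 and ET replicate 1, where group and library set coincide, 6 of these genes passed in edgeR, against 5.27% of all genes. They were Klf15, Pik3r1, Rora and Ncor1 (higher), Timeless (lower) and Prkaa2, a catalytic subunit of AMP-activated kinase (higher), with adjusted p from 0.0126 to 0.0446. Prkaa2 was named after its values were seen.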

How the data were processed

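Left ventricle mRNA was sequenced in 6 libraries (3 CONT, 3 ET; NuGEN Universal mRNA Plus, 1000 ng of total RNA, 75 bp paired reads, per the labels). The authors deposited expected counts per gene, made with STAR 2.7.0f and RSEM 1.2.31 on mm10 per the submitters' processing notes, not normalized. They also deposited TPM and FPKM per library, per the file headers. Neither the annotation release nor the strand setting was given in the sources used here. Libraries of a group differed by far more than counting noise (chi-square per gene 18.8 to 190), so each counted as 1 sample. Replicate numbers follow deposit order.

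Counts were rounded, filtered (filterByExpr, minimum count 10, minimum total 15), scaled by TMM and tested with edgeR's robust quasi-likelihood test over all 15727 genes, two-sided, with Benjamini-Hochberg adjustment. The SE is the size of the log2 fold change divided by the square root of F. The effective length is the expected count over FPKM, scaled by the library total. Sets of libraries were read from genes with FPKM of at least 1 and at least 100 counts in every library. An exact permutation test of 3 against 3 cannot give a two-sided p under 0.10, so none was run. The code was tested on simulated data with 100 genes changed 2-fold and 100 changed 4-fold. There edgeR called 25 and 82 of them, with 18 false calls, and DESeq2 called 44 and 86, with 59 false calls. A 2-fold change can thus go uncalled in edgeR. Coordinates come from GENCODE vM21 (GRCm38), start-site windows from RefSeq.

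Alternatives were RLE, upper-quartile and no factors, unfiltered genes, only genes with 3 libraries at CPM of at least 1, DESeq2, limma-voom, limma on log2(TPM + 1) and log2(TPM + 0.1) with mean TPM of at least 0.5, mitochondrial genes removed, a threshold of 0.10, a term for the library set, and libraries left out. The clock genes and all lists were chosen with earlier results of these data known. All 10 clock genes are named, and of each further list at most 4 genes of the lowest p with a mean CPM of at least 1, of which 2 are not reported here. Ciart and Prkaa2 were named after their values were seen. The 3 genes of the nearest profile to Arntl and to Nr1d1 are named too. Software was DESeq2 1.42.0, limma 3.58.1 and edgeR 4.0.16 in R 4.3.3, and matplotlib 3.10.9 and pandas 2.3.3 in Python 3.11.15.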

Additional observations from a re-analysis of the deposited data

How the results depend on the processing

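The 10 clock genes gave 188 values under 19 alternatives, of which 179 kept the direction and the side of the threshold, 8 turned sign and 1 (Cry2) passed. The 179 include the 10 values at the threshold of 0.10, which are those of the main fit and could not turn sign. Npas2 had too low a TPM for both TPM fits. Per1 was -0.0252 with upper-quartile factors, -0.0399 with the set term and, with single libraries left out, from -0.198 to 0.323, namely -0.20 without CONT replicate 2 and -0.07 without ET replicate 3. Per2 was 0.0099 on the log2(TPM + 1) and 0.0066 on the log2(TPM + 0.1) scale, where the medians over all genes were 0.15 and 0.18. Npas2 was -0.0325 with the set term and from -0.103 (without ET replicate 3) to 0.662 with single libraries left out. Arntl ranged from 0.86 to 1.34 and Per3 from -0.85 to -0.51 with each library left out in turn, and Arntl was 0.58 on the log2(TPM + 1) scale, which understates low genes.

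Over all genes, the number called was 0 in edgeR (1360 at an unadjusted p under 0.05), 185 in DESeq2, 1 and 2 in the fits on log2(TPM + 1) and log2(TPM + 0.1), and 828 without CONT replicate 3 and ET replicate 1 together. DESeq2 called 1 gene of the further lists, against 1.20% of all genes. The setting without both libraries called 1 clock gene and 6 genes of the further lists, against 5.27% of all genes. It separated 7 clock genes instead of 4, against 60.5% of all genes. The cause was not tested, and in that setting group and library set coincide. Leaving out single libraries gave 0 calls over all genes, clock genes and lists. No paired analysis was possible because the labels give the libraries no replicate numbers. Depth limits Arntl and Npas2, at 30 to 117 counts per library.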
